A study of Mus musculus with 12 samples.

Results

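The 9 genes Olig1, Olig2, Nkx2-2, Nkx6-2, Myrf, Zfp488, Zfp536, Tcf7l2 and Id2 encode regulators of transcription, other than Sox factors, that act in the specification and differentiation of oligodendrocytes (OLs). They were taken by symbol from the 56860 named genes of a count table, and all 9 were found and passed the filter on low counts. The libraries came from primary OLs of C57BL/6J mice, isolated from the cortex of newborn animals with beads against the surface antigen O4, expanded with PDGF-AA and then matured with insulin, triiodothyronine and ciliary neurotrophic factor. In 6 libraries (siEgr2) Egr2 was targeted and in the other 6 (siNC) a scrambled control was used, each for 48 h. The methods call the reagent an siRNA in one place and an interference plasmid in another. All 12 libraries share strain, isolation and medium. The labels give the tissue as the medial prefrontal cortex, where the methods name the cortex, and neither states whether the 6 libraries of a group came from separate animals or cultures, so the p-values measure the spread between libraries.

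As background, OLs arise from precursors that express the receptor Pdgfra and divide in response to PDGF. The bHLH factor Olig2 specifies the lineage, and its neighbor Olig1 acts with it and later in maturation. The homeodomain factors Nkx2-2 and Nkx6-2 act in patterning and differentiation. Myrf is switched on as cells leave the precursor stage and drives myelin genes together with Sox10, a factor expressed through the whole lineage. Zfp488 is a zinc finger partner of Olig2, Zfp536 is a zinc finger repressor that is expressed in the lineage, and Tcf7l2 is the Wnt effector of newly formed OLs. Id2 lacks a DNA-binding region and holds the E-protein partners of bHLH factors away from DNA.

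Depth was 28682946 to 39383014 counts per siNC library and 8034251 to 16683677 counts per siEgr2 library. The 18S ribosomal RNA gene Rn18s-rs5 took 0.142% to 1.05% of the siNC counts and 10.5% to 16.5% of the siEgr2 counts. Depth and ribosomal RNA share therefore differ between the groups without overlap, and they cannot be told apart from treatment. The level of the targeted gene Egr2, on 30 to 295 counts per library, was 5.35 ± 1.27 CPM in siNC and 3.77 ± 1.01 CPM in siEgr2 (SD, n = 6 libraries each). These ranges overlapped, with a log2 fold change of -0.51 (adjusted p = 0.0981 in edgeR, and p = 0.0433 in an exact two-sided permutation test). With library totals alone it was -0.70 (adjusted p = 0.0144, edgeR), so that Egr2 was called lower. CPM are counts scaled to a common library total with TMM factors, so that libraries of different depth can be compared. Fewer cells of a type and less RNA per cell cannot be told apart in such bulk libraries.

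None of the 9 regulators changed by the threshold of the study, an adjusted p under 0.05 with an absolute log2 fold change over 0.5. Among the 16600 genes tested, 7.72% were called at that threshold, 2.63% higher and 5.08% lower in siEgr2. DESeq2 and limma-voom also called 0 of the 9. By the adjusted p alone, 4 of the 9 passed in edgeR's quasi-likelihood test. Of these, Olig2, Olig1 and Nkx2-2 were higher and Myrf was lower in the siEgr2 group, a split of 3 higher and 1 lower. With TMM factors 19.9% of all tested genes passed the adjusted p alone, 8.57% higher and 11.3% lower. When libraries were scaled by their totals alone, 5 of the 9 passed, with 1 higher (Olig2) and 4 lower (Myrf, Tcf7l2, Nkx6-2 and Zfp488), and Nkx2-2 was at -0.0100. Under that scaling 35.6% of all tested genes passed, 3.04% higher and 32.6% lower. With TMM factors, the 95% interval of the log2 fold change lay inside -0.5 to 0.5 for 7 of the 9. A change past the threshold lies outside those intervals. The intervals of Id2 and Zfp536 reached past 0.5. Intervals with library totals alone were not computed, and Nkx6-2 was then at -0.30 with a standard error of 0.10. The median log2 fold change of the 9 was 0.17, beside 0.0046 for all tested genes.

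**Figure D1:**
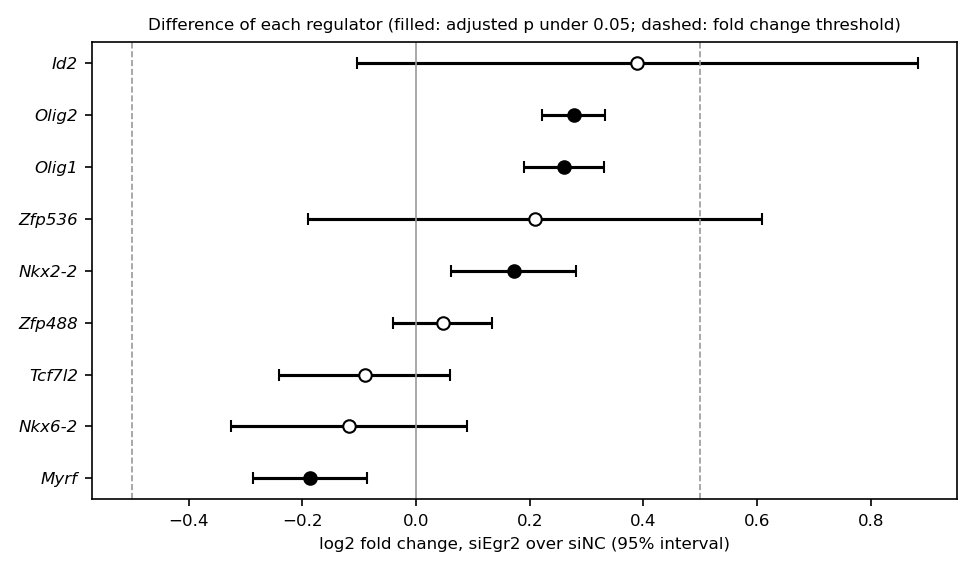
Log2 fold change of each regulator in siEgr2 over siNC (horizontal axis) with its 95% interval from edgeR, filled where the adjusted p was under 0.05 and open otherwise, with dashed lines at the fold change threshold of 0.5 in either direction. The points run from -0.19 for Myrf to 0.39 for Id2, and only the intervals of Id2 and Zfp536 cross a dashed line.

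Olig1 and Olig2 lie close together on chromosome 16 of GRCm38, Olig2 from 91225457 to 91228677 and Olig1 from 91269772 to 91271933, with 41094 bp between them. Olig2 had a lowest level of 612, a median of 635 and a highest level of 658 CPM in siNC, and 759, 771 and 785 CPM in siEgr2. The lowest siEgr2 value exceeded the highest siNC value by a clear margin. Mean levels were 635 ± 17.0 CPM and 770 ± 9.83 CPM (SD, n = 6 libraries each), which is 0.28 higher on the log2 scale in siEgr2 (standard error 0.026, adjusted p = 1.88e-06, edgeR), or 0.095 with library totals alone (adjusted p = 0.0320, edgeR). The spread of Olig2 among the siEgr2 libraries was narrow, since 99.9% of the 9066 tested genes whose mean log2 CPM was 4 or more had a wider range there.

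Olig1 had a lowest level of 1178, a median of 1201 and a highest level of 1292 CPM in siNC, and 1376, 1448 and 1546 CPM in siEgr2. Its groups did not overlap either. On the log2 scale siEgr2 was 0.26 higher, with a 95% interval from 0.19 to 0.33 (adjusted p = 3.41e-05, edgeR). With library totals alone it was 0.077 higher and no longer passed (adjusted p = 0.0575, edgeR). For both genes the exact two-sided permutation test gave p = 0.00216, the smallest that 6 against 6 libraries allow. The log2 ratio of Olig1 to Olig2 within a library was 0.93 ± 0.026 in siNC and 0.92 ± 0.069 in siEgr2 (SD, n = 6). Ranges without overlap were seen for 3 of the 9 regulators and for 11.2% of all tested genes. The last 157 exonic bases of Olig1 are shared with a long noncoding RNA on the opposite strand, Gm15966, which had 913 counts over all libraries, few beside the 10935 or more counts of Olig1 in each library.

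**Figure D2:**
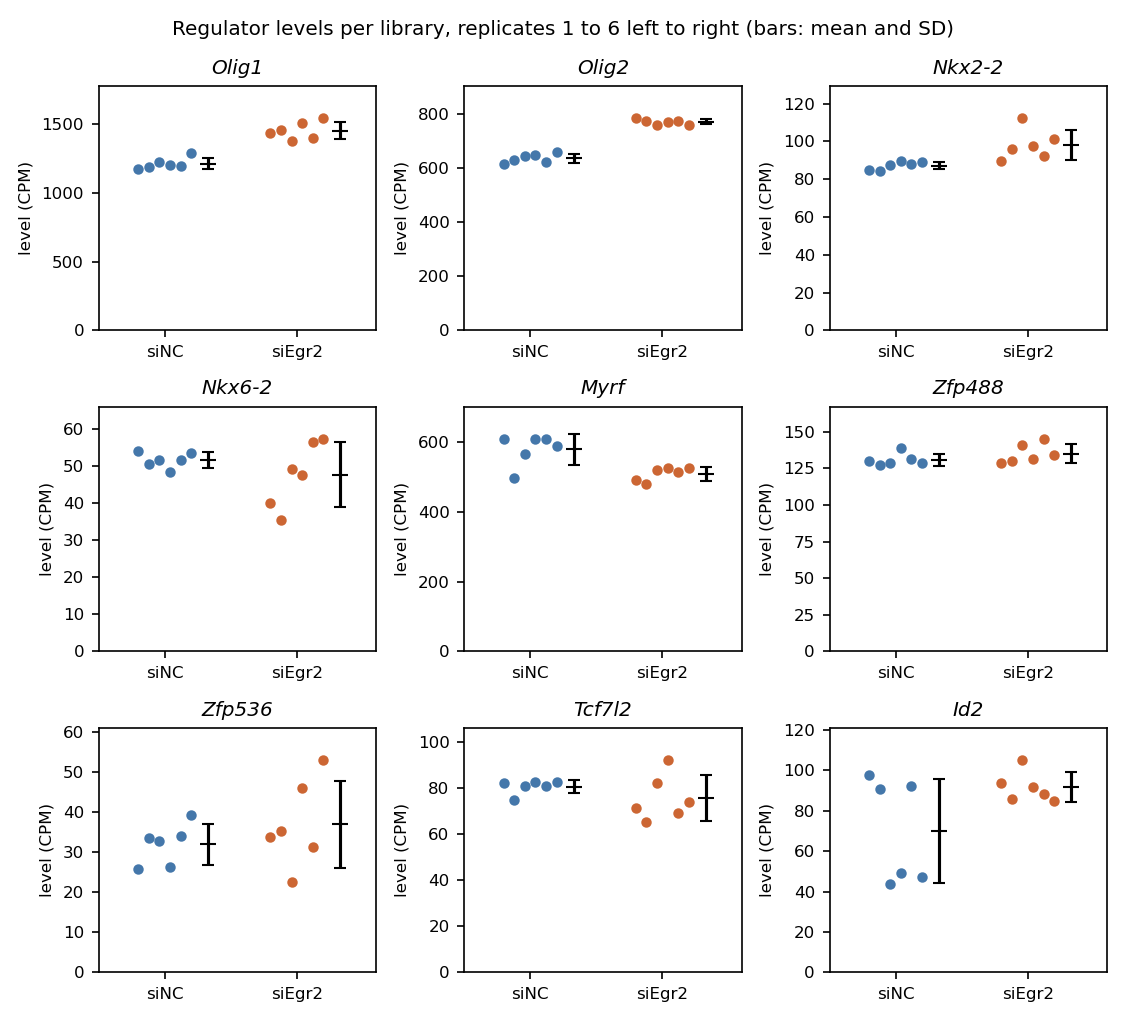
Normalized level (vertical axis, CPM, from 0) of the 9 regulators in each of the 6 siNC and 6 siEgr2 libraries (points, replicates 1 to 6 from left to right), with the mean and SD of each group as a bar. Olig1, Olig2 and Nkx2-2 lie higher in every siEgr2 library than in any siNC library, although with library totals alone the log2 fold changes are 0.077, 0.095 and -0.0100, and Id2 has 3 low and 3 high siNC libraries.

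Nkx2-2 lies on chromosome 2 from 147177546 to 147194243. Its lowest, median and highest levels were 84.5, 87.7 and 89.4 CPM in siNC and 89.7, 97.0 and 112 CPM in siEgr2. The groups did not overlap, but the highest siNC and the lowest siEgr2 library were nearly level. The difference on the log2 scale was 0.17, with an interval from 0.062 to 0.28 (adjusted p = 0.0271, edgeR). This result rested on single libraries, since the adjusted p in edgeR was 0.0622 without siEgr2 replicate 3, 0.0533 without siNC replicate 1, 0.0516 without siNC replicate 2 and 0.0528 without siEgr2 replicate 6. An antisense gene, Nkx2-2os, spans 1476 of its 2875 exonic bases. Nkx2-2os itself stood at 7.93 ± 0.946 CPM in siNC and 8.89 ± 0.877 CPM in siEgr2 (SD, n = 6), and whether the reads were counted by strand is not stated.

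Nkx6-2, which lies on chromosome 7 from 139579376 to 139582797, is the homeodomain factor of the set that appears in maturing OLs. Its levels were 48.2, 51.5 and 54.1 CPM (lowest, median, highest) in siNC and 35.4, 48.3 and 57.2 CPM in siEgr2. The siEgr2 libraries enclosed the whole siNC range. The coefficient of variation was 4.09% in siNC and 18.3% in siEgr2, where the gene had 435 to 793 counts. Its log2 fold change of -0.12 had a 95% interval from -0.32 to 0.090 (adjusted p = 0.447, edgeR), and with library totals alone it was -0.30 (adjusted p = 0.0280, edgeR). Without siEgr2 replicate 2 it was -0.049, without siEgr2 replicate 1 it was -0.075 and without siEgr2 replicate 6 it was -0.18. The 3' part of Nkx6-2 shares 246 exonic bases with Inpp5a on the other strand, which was at 59.7 ± 3.35 CPM in siNC and 44.2 ± 4.51 CPM in siEgr2 (SD, n = 6).

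Myrf, on chromosome 19 from 10208272 to 10240748, is a membrane-bound factor that is cleaved to release its DNA-binding part. With TMM factors it was the only one of the 9 that was lower in siEgr2 by the adjusted p, and with library totals alone Tcf7l2, Nkx6-2 and Zfp488 were lower as well. Its levels were 496, 598 and 609 CPM (lowest, median, highest) in siNC and 480, 517 and 527 CPM in siEgr2. All siEgr2 libraries lay below 5 of the 6 siNC libraries, and the siNC library of replicate 2, at 496 CPM, fell within the siEgr2 range. The mean was 579 ± 44.1 CPM in siNC and 509 ± 19.5 CPM in siEgr2 (SD, n = 6), or -0.19 on the log2 scale (standard error 0.047, adjusted p = 0.00978, edgeR), and the exact two-sided permutation test gave p = 0.0108. The adjusted p stayed under 0.05 in all 22 alternatives, at 0.0268 or less, and the log2 fold change was -0.37 with library totals alone. Without siNC replicate 2, the log2 fold change was -0.23 (adjusted p = 3.29e-04, edgeR).

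The zinc finger genes did not pass the test with TMM factors. Zfp488, on chromosome 14 from 33967070 to 33978764, had 127, 129 and 139 CPM (lowest, median, highest) in siNC and 129, 133 and 145 CPM in siEgr2. Its groups lay almost on top of each other, and the interval of its log2 fold change of 0.047 was narrow, from -0.040 to 0.13 (adjusted p = 0.471, edgeR), but with library totals alone it was -0.13 (adjusted p = 0.0477, edgeR). Without siEgr2 replicate 5 or 3 it was 0.023 or 0.031. Zfp536, on chromosome 7 from 37472135 to 37773641, had 25.7, 33.2 and 39.2 CPM in siNC and 22.6, 34.5 and 53.0 CPM in siEgr2. The highest and the lowest library of Zfp536 were both siEgr2 libraries, those of replicates 6 and 3. Its log2 fold change was 0.21 with a wide interval from -0.19 to 0.61 (adjusted p = 0.479, edgeR), and 2.57% of the 9066 genes compared had a wider range among the siEgr2 libraries. With library totals alone the log2 fold change of Zfp536 was 0.018, and with TMM factors it was 0.32 without siEgr2 replicate 3, 0.078 without siEgr2 replicate 6 and 0.13 without siEgr2 replicate 4.

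Tcf7l2 lies on chromosome 19 from 55741820 to 55933654 and pairs with beta-catenin at Wnt target genes. Its levels were 74.9, 81.5 and 82.6 CPM (lowest, median, highest) in siNC and 65.1, 72.7 and 92.2 CPM in siEgr2. Of the siEgr2 libraries, 4 lay below all siNC libraries and that of replicate 4 above them. The log2 fold change was -0.090, with an interval from -0.24 to 0.061 (adjusted p = 0.419, edgeR), and with library totals alone it was -0.27 (adjusted p = 0.00572, edgeR). Single libraries moved it, to -0.16 without siEgr2 replicate 4 (adjusted p = 0.0748, edgeR) and to -0.053 without siEgr2 replicate 2. Ppnr, a noncoding gene annotated inside an intron of Tcf7l2 on the same strand, was higher in siEgr2. It had 0.187 ± 0.155 CPM in siNC and 2.76 ± 2.17 CPM in siEgr2 (SD, n = 6), which is 3.87 on the log2 scale (standard error 0.67, adjusted p = 6.71e-04, edgeR). Ppnr had only 239 counts in all 12 libraries, and the part of the higher ribosomal RNA share of the siEgr2 libraries in this difference was not tested.

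Since Egr2 is the targeted factor, the promoters of the regulators were searched for the EGR motif GCGNGGGCG on both strands. RefSeq promoters (GRCm38.p6, 250 bases before to 50 after the start) were given for 7 of the 9 genes, 8 promoters in all, and not for Olig1 and Myrf. The motif occurs in 2 of these 8, and in 5.55% of all 32851 promoters. It occurs in 16.6% of the promoters with a GC content of at least 60%. The matches are those of Nkx6-2, on chr7:139582907-139582936, minus strand, and Tcf7l2, on chr19:55741707-55741736, plus strand. They are shown with their surroundings, 5′ to 3′ on the strand of the gene, with the motif or its reverse complement in capitals.
Nkx6-2: tgcatggccgGCGGGGGCGcgcgcagacgg
Tcf7l2: cattgttggcCGCCCCCGCcccgcccaccc
The first base of the match lies 129 bases before the start of Nkx6-2 and 93 bases before that of Tcf7l2. Neither gene passed the test with TMM factors, both passed the adjusted p as lower with library totals alone, and binding was not measured in these libraries. A match is a description of the letters only.

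Id2, on chromosome 12 from 25093799 to 25097140, had the widest range of the 9 among the siNC libraries, with its highest value 2.23 times its lowest. In the siNC libraries its level was 97.7, 90.7, 43.8, 49.2, 92.3 and 47.2 CPM in the order of replicates 1 to 6. In siEgr2, in the same order, it read 94.0, 86.1, 105, 91.9, 88.5 and 85.0 CPM. The siNC libraries of replicates 3, 4 and 6 lay between 43.8 and 49.2 CPM, and no library lay between them and the next value of 85.0 CPM. All siEgr2 libraries were at the level of the 3 high siNC libraries. The means were 70.2 ± 25.8 CPM in siNC and 91.8 ± 7.43 CPM in siEgr2 (SD, n = 6), or 0.39 on the log2 scale with an interval from -0.10 to 0.88 (adjusted p = 0.265, edgeR). The exact two-sided permutation test gave p = 0.121, and with library totals alone the log2 fold change was 0.21. Among the 9066 genes compared, 2.63% had a wider range over the siNC libraries. No annotated gene overlaps Id2 in GENCODE M21.

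The other Id genes, which share the function of Id2, were all lower in the siEgr2 group. Id1 was at 52.0 ± 3.44 CPM in siNC and at 32.2 ± 4.41 CPM in siEgr2 (SD, n = 6), with a log2 fold change of -0.69 (adjusted p = 2.50e-05, edgeR). Id4 was at 63.4 ± 4.22 CPM and 42.7 ± 4.98 CPM, with a log2 fold change of -0.57 (adjusted p = 3.85e-05, edgeR). Id3 had a log2 fold change of -0.44 (adjusted p = 2.09e-05, edgeR), under the fold change threshold, and with library totals alone it was -0.63 and called lower, which makes 3 called lower in this list. For Id1, Id3 and Id4 alike the groups did not overlap. Of their partners, the E proteins, Tcf3 had a log2 fold change of 0.086, Tcf4 of -0.0061 and Tcf12 of -0.081, and none passed the test. In this list of 6 genes, 2 were called lower and 0 higher, beside 5.08% and 2.63% of all tested genes, with a median log2 fold change of -0.26. Astrocyte markers were lower in the same libraries, with 7 of 15 called lower and a summed level of 9482 to 10225 CPM in siNC and 6033 to 6832 CPM in siEgr2, and their part in the difference of the Id genes was not tested.

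Levels of different genes were compared per kilobase of exon (RPKM). In the siNC libraries Olig1 stood highest at 562 ± 19.0 RPKM, followed by Olig2 at 251 ± 6.73 RPKM and Myrf at 67.7 ± 5.15 RPKM (SD, n = 6). The ranges of these 3 genes did not overlap with each other or with the next gene. Zfp488 (30.4 ± 0.978 RPKM), Nkx2-2 (30.4 ± 0.731 RPKM), Id2 (28.8 ± 10.6 RPKM) and Nkx6-2 (27.0 ± 1.11 RPKM) followed, and neighbors in this order overlapped. Tcf7l2 (9.19 ± 0.336 RPKM) and Zfp536 (3.46 ± 0.557 RPKM) stood apart below them. In siEgr2 the same genes held the first 3 and the last 3 places, Id2 took place 4 at 37.7 ± 3.05 RPKM, and Nkx2-2, at 34.2 ± 2.80 RPKM, and Zfp488, at 31.4 ± 1.53 RPKM, came next. Without the length, by CPM, Tcf7l2 ranked 6 in siNC in place of 8, with exons of 8775 bases in all.

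**Figure D3:**
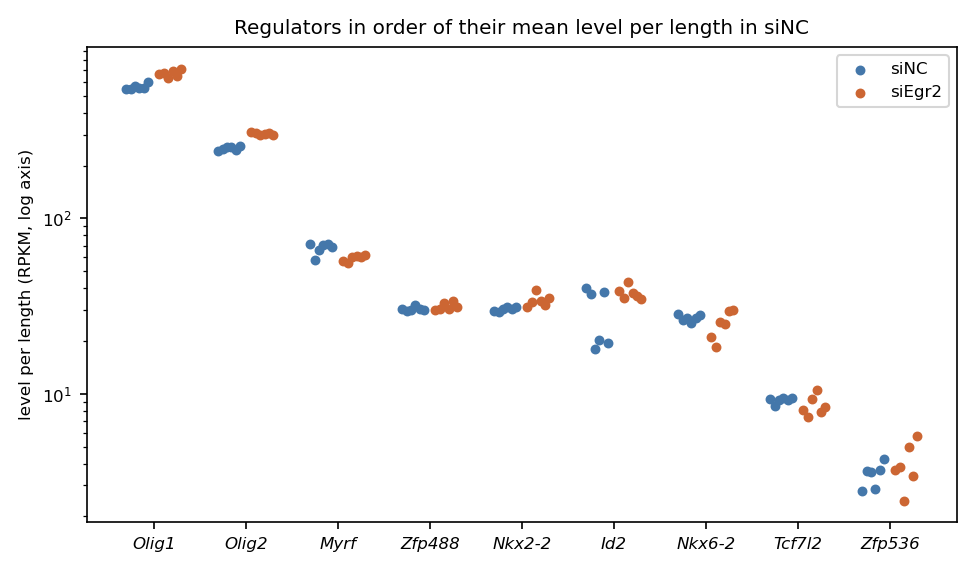
Level per kilobase of exon (vertical axis, RPKM, log scale) of each regulator in every siNC and siEgr2 library (points), ordered by the siNC mean. Olig1 and Olig2 stand above the others in all libraries, 4 genes lie close together with siNC means of 30.4 to 27.0 RPKM, and Zfp536 is lowest.

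Ratios within a library depend on the scaling only through the pseudocount of 0.5 CPM. Sox10, which is expressed in the lineage from precursor to mature OL, served as the reference, and it stood at 605 ± 19.3 CPM in siNC and 676 ± 18.9 CPM in siEgr2 (SD, n = 6), with a log2 fold change of 0.16 (adjusted p = 0.00114, edgeR), or -0.022 with library totals alone. Relative to Sox10, Myrf was the only one of the 9 without overlap between the groups. Its log2 ratio ran from -0.27 to 0.040 in siNC and from -0.44 to -0.36 in siEgr2, a difference of -0.34. The ratios of Myrf to Olig2 (-0.46), Olig1 (-0.44) and Nkx2-2 (-0.35) did not overlap either, and that of Myrf to Zfp488 (-0.23) overlapped. Olig1 and Olig2 were 0.099 and 0.12 higher relative to Sox10, and Nkx2-2 was 0.0065 higher, all with overlap. The differences of Nkx6-2 (-0.29), Tcf7l2 (-0.26), Zfp488 (-0.11), Zfp536 (0.013) and Id2 (0.31) also came with overlapping ranges. The myelin gene Mbp, for comparison, differed by -0.44 on the log2 scale relative to Sox10, without overlap. These ratios were not tested, and the share of all tested genes whose ratio to Sox10 does not overlap was not determined.

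**Figure D4:**
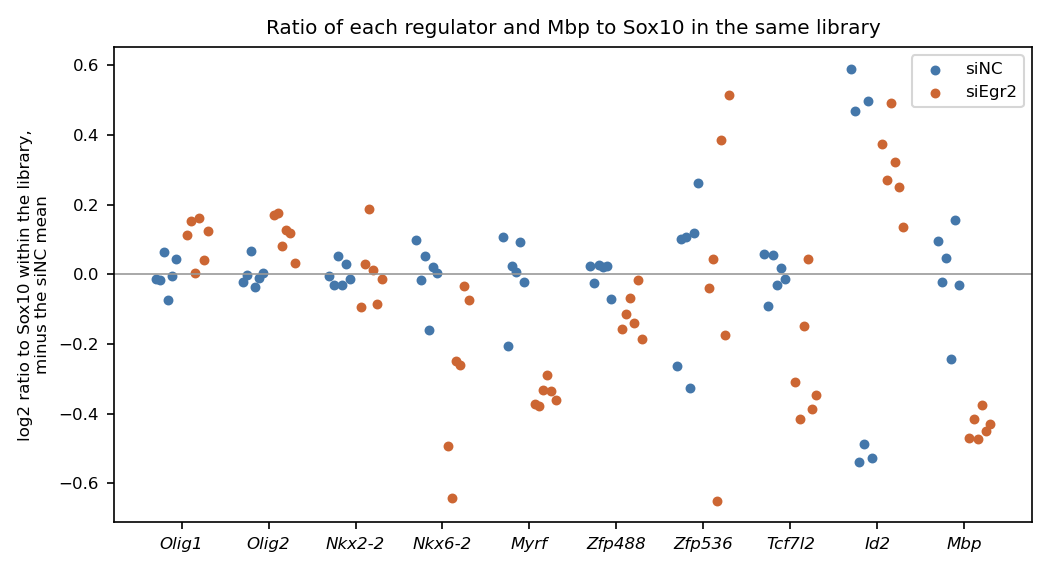
Log2 ratio of each regulator, and of the myelin gene Mbp, to Sox10 within the same library, minus the siNC mean (vertical axis), with 1 point per library. The siEgr2 points of Myrf and Mbp all lie below the siNC points, while those of the other 8 regulators overlap with them.

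Other genes that regulate the lineage were described by lists, whose counts stand beside the 2.63% and 5.08% of all tested genes called higher and lower. Of 32 further regulators, 30 were tested, 0 were called higher and 2 lower, with a median log2 fold change of -0.014. The called genes were Hes1 (log2 fold change -0.75, adjusted p = 0.0149, edgeR), a Notch target that holds back differentiation, and the thyroid hormone receptor Thrb (-0.59, adjusted p = 0.00113, edgeR). By the adjusted p alone, 7 were higher, among them Sox8 (-0.038 with library totals alone) and Sox6, and 6 were lower, beside 8.57% and 11.3% of all tested genes, among them Sox9 (-0.40, or -0.58 and called lower with library totals alone), which OL precursors share with astrocytes, and Tmem98 (-0.36), whose product binds Myrf and blocks its cleavage. Of 36 genes of the Wnt and beta-catenin pathway, in which Tcf7l2 acts, 31 were tested, 1 was called higher and 2 lower. These were the receptor Lgr5 (0.60), the formin Daam2 (-0.62) and the secreted protein Dkk3 (-0.77). By the adjusted p alone 1 was higher and 10 were lower, beside 8.57% and 11.3% of all tested genes. Axin2, a common target of the pathway, was at 20.8 ± 1.02 CPM in siNC and 17.9 ± 1.84 CPM in siEgr2 (log2 fold change -0.21, adjusted p = 0.0828, edgeR), and with library totals alone its log2 fold change was -0.39 (adjusted p = 0.00122, edgeR).

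The genes that mark the stages of the lineage were read the same way. Of 24 myelin genes, edgeR called 0, while DESeq2, and edgeR without siEgr2 replicate 6, each called 1 higher. By edgeR's adjusted p alone 6 passed, all lower, where 8.57% of all tested genes passed higher and 11.3% lower, among them the myelin basic protein gene Mbp (log2 fold change -0.28). Their median log2 fold change was -0.12. Of 14 tested precursor genes, 2 were called higher, the growth factor receptor Pdgfra (0.56) and the proteoglycan Cspg4 (0.56), and 1 lower, Matn4 (-0.65), with a median of 0.37. By the adjusted p alone 9 were higher and 3 lower. The lower call was lost (0 lower) without siNC replicate 1 or 5 or siEgr2 replicate 2, 4 or 6. Of 15 genes of newly formed OLs, 0 were called and 2 passed the adjusted p alone, both lower, Enpp6 (-0.22) and Tns3 (-0.21). Enpp6 passed narrowly (adjusted p = 0.0483, edgeR) and missed with RLE scaling (0.0527), limma-voom (0.0606), thinned counts (0.0577), structural RNA genes left out (0.0586) and in all fits without 1 library other than those without siNC replicate 3 or 6 or siEgr2 replicate 3, at up to 0.101. Gpr17, the receptor of that stage, was at 791 ± 31.7 and 805 ± 43.3 CPM (SD, n = 6). Defining markers of OLs were thus present in every library, from Pdgfra (472 CPM or more) to Mbp (1445 CPM or more).

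Markers of other cell types were also measured, although the O4 beads select OLs, and their counts stand beside the 2.63% and 5.08% of all tested genes called higher and lower. Of 15 astrocyte markers, all tested, 7 were called lower and 0 higher, with the summed levels given above for the Id genes. Gfap, the most abundant of them, was at 4777 ± 205 CPM in siNC and 3242 ± 152 CPM in siEgr2 (SD, n = 6). The called markers included Slc1a3 (log2 fold change -0.85), Aqp4 (-0.80), Aldh1l1 (-0.74), Clu (-0.71) and Slc4a4 (-0.68). Sox9 and Hes1, which astrocytes also express, were lower in the same libraries. The part of the astrocyte RNA in their difference, or in that of the Wnt genes or the 9 regulators, was not tested. Of 15 microglia markers 6 were tested and 0 called, with summed levels of 27.5 to 35.2 CPM in siNC and 24.2 to 35.7 CPM in siEgr2, and Aif1, Itgam and Fcrls had 0 counts in all libraries. Neuron markers summed to 483 to 535 CPM in siNC and 477 to 506 CPM in siEgr2, with Elavl4 (0.53) called higher and Stmn2 (-0.91) lower among 13 tested. The higher call was lost (0 higher) with library totals alone, without a filter, with thinned counts, and without siNC replicate 3, 4 or 6 or siEgr2 replicate 4 or 5. Fibroblast and pericyte markers summed to 905 to 1461 CPM and 909 to 1093 CPM, and 3 of 8 tested were called lower, Rgs5 (-0.78), Acta2 (-0.57) and Pdgfrb (-0.56). Endothelial markers summed to 52.1 to 63.7 CPM and 39.3 to 51.1 CPM, with Flt1 (-1.35) and Slco1a4 (-0.93) called lower of 5 tested (1 with at least 10 counts required in every library) and Cldn5 at 0 counts. Ependymal markers summed to 67.1 to 87.8 CPM and 50.3 to 63.4 CPM, with 0 of 6 tested called and Sntn at 0 counts. Of these markers 3 were called lower with library totals alone, and 1 without a filter and without siNC replicate 2 or siEgr2 replicate 1, 2 or 5.

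The differences depended on the scaling. With the totals alone in place of TMM factors, the median log2 fold change of all tested genes moved from 0.0046 to -0.18. Under that scaling Nkx2-2 (-0.0100) and Zfp488 (-0.13) changed sign. Relative to the median of all genes the values under that scaling were 0.27 for Olig2, 0.25 for Olig1, 0.17 for Nkx2-2, 0.044 for Zfp488, -0.096 for Tcf7l2, -0.12 for Nkx6-2 and -0.19 for Myrf. Pdgfra was then at 0.37, so that 0 precursor genes were called higher. Called lower were 12 astrocyte markers, 7 Wnt genes (4 without a filter), 5 other lineage regulators and 2 myelin genes, and 0 Wnt genes were called higher. No alternative called any of the 9 regulators at the threshold of the study.

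**Figure D5:**
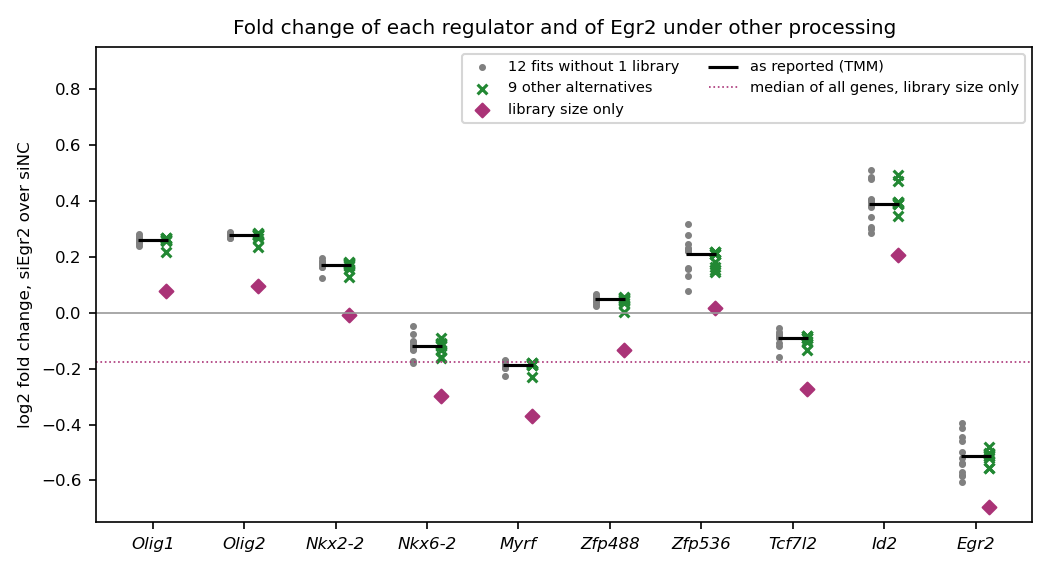
Log2 fold change (vertical axis) of each regulator and of Egr2 as reported (bar), in the 12 fits without 1 library (dots), under 9 other alternatives (crosses) and with library size only (diamonds), with the median of all genes under library size only as a dotted line at -0.18. Library size only shifts every gene plotted downward and turns the sign of Nkx2-2 and Zfp488, and the other crosses and dots keep the sign of the bar.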

How the data were processed

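The authors deposited 1 table of raw counts per gene symbol, without normalization, for all 12 libraries. Reads were 50 bp, and the submitters' processing notes name the build mm10 (GRCm38). The aligner, the counting program, the annotation and the use of strand are not given in the sources used here, so counts of overlapping genes are uncertain. A blank entry without a gene name or counts was left out.

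Counts as deposited were tested with edgeR 4.0.16 under R 4.3.3 (filterByExpr, TMM, robust quasi-likelihood test without covariates, Benjamini-Hochberg adjustment over 16600 genes). Standard errors were derived from the F statistic, and 95% intervals from its degrees of freedom. CPM use the TMM scale, log2 values of single libraries a pseudocount of 0.5, and RPKM the union of GENCODE M21 exons. Alternatives were other scalings, DESeq2 1.42.0, limma-voom (limma 3.58.1), other filters, a replicate block, thinned counts, removal of structural RNA genes and each library left out. The procedure was tested on simulated data.

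The regulators and all lists were chosen with earlier results of these data known. Named were all regulators, Egr2, Sox10, fixed lineage genes, up to 5 called genes per list, genes overlapping a regulator and, for called regulators (none here), genes of like pattern. Other genes are named as examples chosen after their values were seen. Some genes named by this rule or as list members are not reported here.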

Additional observations from a re-analysis of the deposited data

Results flagged for a closer look

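Single libraries were looked at within each group of 6 for the regulators, the fixed lineage genes, the ratios to Sox10, the depth and the ribosomal RNA share, 66 groups in all, of which 3 held a library that stood apart from the other 5, where chance gives 3.3. Tcf7l2 was at 74.9 CPM in the siNC library of replicate 2, below 80.7 to 82.6 CPM in the other siNC libraries. Zfp488 was at 138.8 CPM in the siNC library of replicate 4, above 127 to 131 CPM in the others. The siNC library of replicate 6 held 39383014 counts, where the other siNC libraries held 28682946 to 32460116. None of the 9 regulators was called with or without these libraries.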

How the results depend on the processing

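Of 198 values of the 9 regulators under 22 alternatives, 196 kept their direction and were not called, as before. The other 2 were those of Nkx2-2 (-0.0100) and Zfp488 (-0.13) with library size only, which changed sign. That scaling also turned Sox10 (-0.022), Sox8 (-0.038) and Gpr17 (-0.16), brought Egr2 to -0.70, past both thresholds (adjusted p = 0.0144 in edgeR, against 0.0144 to 0.214 over all alternatives) and called 1974 genes, 237 higher and 1737 lower, in place of 1281, 437 higher and 844 lower. Of the regulators, 1 higher and 4 lower passed the adjusted p alone there, in place of 3 and 1. Small values changed sign in Gpr17 without a filter (-0.018) and without siEgr2 replicate 5 (-0.00094), and in Tcf4 with thinned counts (0.0055), without structural RNA genes (0.0019) and in 6 fits without 1 library (0.0034 to 0.043). Over all fits without 1 library Gpr17 ran from -0.00094 to 0.041, Tcf4 from -0.066 to 0.043 and Egr2 from -0.60 to -0.39. Genes called numbered 3300 without a fold change threshold, when 4 regulators passed, and 373 over 1. Leaving out 1 library gave 1114 to 1339 genes called and 3 to 4 regulators that passed the adjusted p alone. Nkx2-2 also missed the adjusted p without a filter (0.128) and with thinned counts (0.0549). Deviations of same-numbered libraries from their group means had correlations from -0.039 to 0.042 over all tested genes. Replicates 1 and 6 matched their own number best. Count noise lowers such correlations, so they cannot show whether same-numbered libraries share an origin, which the labels do not give. With the replicate block 1124 genes and 0 of the 9 regulators were called, and Egr2 stood at -0.52. Thinned to the smallest total, 3 regulators passed the adjusted p alone.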

Other observations

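The split of Id2 among the siNC libraries was seen in part in Enpp6, a gene of newly formed OLs. Enpp6 stood at 623, 577, 512, 558, 594 and 496 CPM in siNC replicates 1 to 6, so that replicates 1, 2 and 5, the libraries with high Id2, also held the 3 highest values of Enpp6. The differences were smaller than in Id2, where the highest siNC library was 2.23 times the lowest, against 1.26 times for Enpp6. Myrf did not share this order, as its lowest siNC value was that of replicate 2. In siEgr2, where Id2 was at the high level in every library, the mean of Enpp6 was 481 ± 51.6 CPM (SD, n = 6). These orders were noticed after the values were seen and were not tested.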
